A study of Arabidopsis thaliana with 8 samples.

Results

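The replicative DNA polymerase subunits described here are ICU2, POLA3 and POLD3. They were chosen as the probe sets that the platform annotation pairs with 1 of these genes alone. The rule found 3 probe sets among the 22746 tested, 1 each for ICU2 (locus AT5G67100), POLA3 (AT5G41880) and POLD3 (AT1G78650). Over the array, 13350 genes are named by a probe set of their own. The gene table used here also gives POLA4 as a synonym of POLA3. Of 11 genes written down for the subunits of DNA polymerases alpha, delta and epsilon, these 3 had a named probe set and the other 8 were not analysed here, among them every listed subunit of polymerase epsilon.

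Nuclear DNA is copied by a division of labour. DNA polymerase alpha carries its own primase and lays down short starts of RNA and DNA, which polymerase delta extends on the lagging strand, while polymerase epsilon is the main enzyme of the leading strand. ICU2 encodes the catalytic subunit of polymerase alpha, and mutants of this gene, INCURVATA2, are known for curled leaves and for flowering genes expressed out of place. POLA3 is the small subunit of the primase, the part that makes the RNA primer, and POLD3 is an accessory subunit of polymerase delta. In plants and animals, genes of the S phase, replication enzymes among them, are known targets of E2F factors, which bind DNA together with a DP partner.

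The series compared 2 groups of Arabidopsis thaliana seedlings of the Col-0 accession on ATH1 arrays, single-colour oligonucleotide arrays, with 4 arrays labelled wildtype and 4 labelled E2Fa-Dpa. The series is titled as a study of E2F target genes. All seedlings were harvested whole, 6 days after germination and 8 days after sowing, from agar at 22 °C with 16 h of light and 8 h of dark. The labels name E2Fa and Dpa without saying how the second group was made, by which promoter, or whether it is 1 line. Separate growth of a group's samples is not recorded either, so the p-values reflect only how much these samples differ, which may be technical. Among probe sets paired with 1 gene, none carries E2FA or DPA as its symbol in the annotation used here. Other probe sets were not searched for these genes, so the labels were not checked on them.

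The values are MAS5 signals, linear intensities that summarise the probes of a set, and the median signal per array lay between 37.95 and 44.4. No detection calls were used here, so whether a signal lay above background was not assessed. E2Fa-Dpa replicates 1 and 4, with wildtype replicates 3 and 4, showed signals of 73.7 to 107.8 for dap, a bacterial RNA that can be added as a control, and the other 4 arrays 1.92 to 2.92. These array sets cross the groups, with 2 arrays of each group in either set, and 26.3% of probe sets differed between them with the group in the model. The 2 arrays of a group within a set correlated at 0.9743 to 0.9941 over all probe sets and are called close pairs. They were paired by group and array set alone, and correlations across sets are not given here. Should a close pair stem from 1 RNA, only 2 samples per group would be independent.

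ICU2 was higher in every E2Fa-Dpa array than in every wildtype array. In wildtype replicates 1 to 4 its signal was 36.1, 36.1, 27.7 and 29.3, and in E2Fa-Dpa replicates 1 to 4 it was 136, 157, 188 and 139. The groups lay far apart, and within each group the 2 arrays without control RNA were the higher ones. The mean signal was 32.33 ± 4.43 in wildtype and 154.9 ± 23.6 in E2Fa-Dpa (SD, n = 4 each), a ratio of 4.79. On the log2(signal + 16) scale used for testing, which understates the change of dim probe sets, the log2 fold change was 1.82 ± 0.139 (SE), with a 95% interval of 1.505 to 2.13 (limma, Benjamini-Hochberg adjusted p = 0.000183 over all probe sets).

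POLA3 rose as well, with a wider spread in the E2Fa-Dpa group. Its signal was 59.6, 60.4, 51.9 and 76.1 in wildtype replicates 1 to 4 and 237, 139, 204 and 262 in E2Fa-Dpa replicates 1 to 4. The groups did not overlap, and E2Fa-Dpa replicate 2 lay lowest of its group. The mean went from 62.0 ± 10.1 to 210.5 ± 53.5 (SD, n = 4 each), a ratio of 3.39. The log2 fold change was 1.51 ± 0.191 (SE), with a 95% interval of 1.08 to 1.94 (limma, adjusted p = 0.00218).

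POLD3 rose with the narrowest spread of the E2Fa-Dpa group among the members. Wildtype replicates 1 to 4 had signals of 32.2, 37.4, 27.9 and 34.8, and E2Fa-Dpa replicates 1 to 4 had 147, 109, 120.4 and 136. Here too all E2Fa-Dpa arrays lay above all wildtype arrays, and E2Fa-Dpa replicate 2 was again the lowest of its group. The mean went from 33.07 ± 4.07 to 128.0 ± 16.7 (SD, n = 4 each), a ratio of 3.87. The log2 fold change was 1.55 ± 0.133 (SE), with a 95% interval of 1.25 to 1.85 (limma, adjusted p = 0.000306). In whole seedlings, more cells that express these genes and more RNA per cell cannot be told apart.

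**Figure D1:**
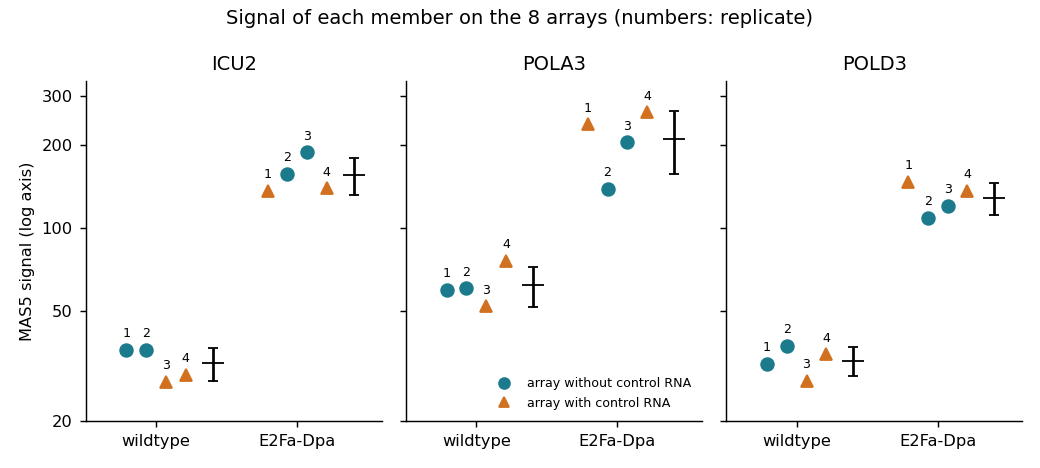
MAS5 signal (log axis) of ICU2, POLA3 and POLD3 on the 8 arrays, by group, with the replicate number above each point and the array set as colour and shape; black bars are the mean and SD of 4 arrays. For each member the 4 E2Fa-Dpa arrays lie above the 4 wildtype arrays, and ICU2 spans 27.7 to 36.1 in wildtype and 136 to 188 in E2Fa-Dpa.

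All 3 members passed the test as higher in E2Fa-Dpa, against 4.36% of all tested probe sets, while 2.94% passed as lower. Of all calls 59.7% were thus rises, a share that was 42.0% with each array centred on its median, where the members passed too. Their groups did not overlap in this direction, which held for 9.53% of all probe sets. An exact permutation test of each member over the 8 arrays, two-sided, gave p = 0.0286 for each, the smallest value that 4 against 4 arrays allow. Groups that do not overlap always give this value, so the test adds nothing to the lack of overlap. By log2 fold change from the top, ICU2 ranked 109, POLD3 177 and POLA3 187 of the 22746 probe sets, so that 0.475%, 0.774% and 0.818% of probe sets had a larger rise. The median log2 fold change of the members was 1.55, and that of all probe sets was 0.00. The members were picked with results of these data known, so these counts describe them and support nothing further.

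**Figure D2:**
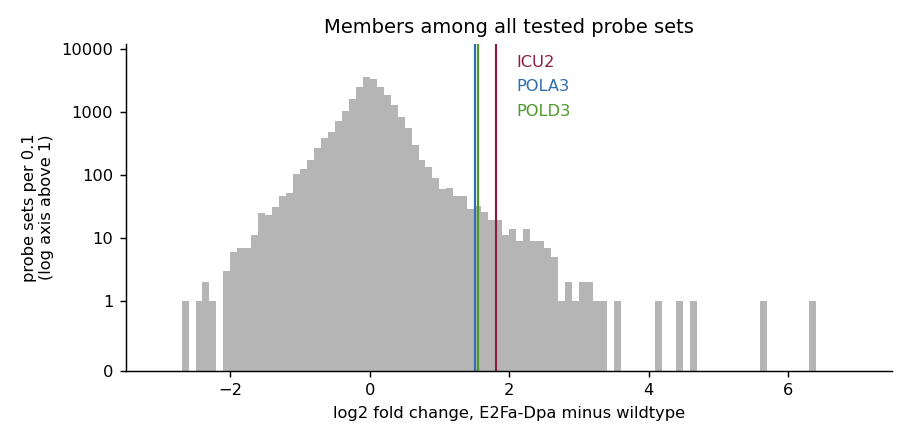
Number of probe sets per bin of 0.1 in log2 fold change (E2Fa-Dpa minus wildtype) for all 22746 tested probe sets, with a count axis that is logarithmic above 1; coloured lines mark the members. ICU2 at 1.82, POLD3 at 1.55 and POLA3 at 1.51 lie in the upper tail, with 108 probe sets above ICU2.

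Each member kept its call in all 8 fits that left out 1 array, which 1.97% of probe sets did as rises. The log2 fold change then ranged from 1.73 to 1.87 for ICU2, from 1.40 to 1.68 for POLA3 and from 1.49 to 1.62 for POLD3, with highest adjusted p-values of 0.00121, 0.0111 and 0.0025 (limma). With the close pairs as a random block the members passed with adjusted p-values of 0.00104, 0.0169 and 0.00244, against 1.53% of probe sets called as rises. With each close pair averaged to 1 value, none of the members passed (limma, adjusted p = 0.121 for ICU2, 0.17 for POLA3 and 0.149 for POLD3). All 3 had an unadjusted p under 0.05 in that fit, as did 2120 of the 22746 probe sets. After adjustment the fit called 2 probe sets in all, 0.00879% of those tested.

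**Figure D3:**
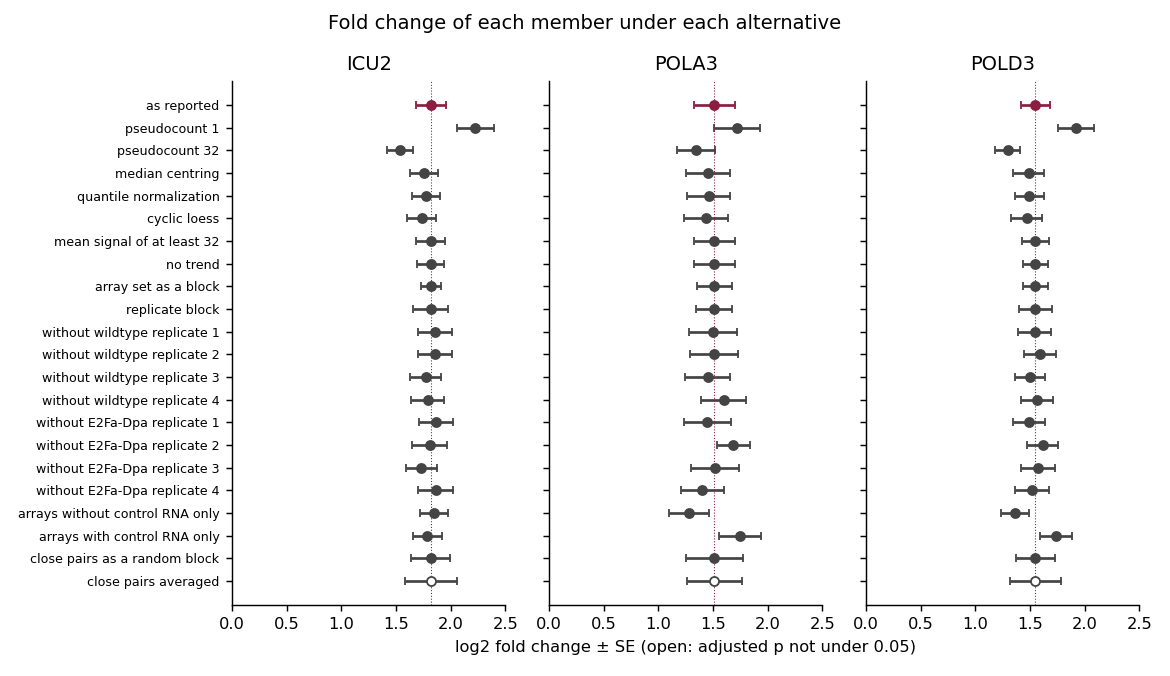
Log2 fold change with its SE for each member as reported (red) and under each alternative; open points mark fits in which the adjusted p was not under 0.05. Only the fit with close pairs averaged gave open points, and values ran from 1.53 to 2.22 for ICU2, from 1.28 to 1.75 for POLA3 and from 1.29 to 1.92 for POLD3.

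The members rose in both array sets. With the array set as a block their adjusted p-values were 1.48e-05 for ICU2, 0.000496 for POLA3 and 9.07e-05 for POLD3 (limma), in a fit that called 11.7% of probe sets higher and 9.77% lower. Among the 4 arrays lacking control RNA ICU2 rose by 1.85 on the log2 scale, and among the 4 that showed it by 1.79 (limma within each set, adjusted p = 0.00504 and 0.00825). In mean signal it went from 36.13 to 172.2 without control RNA and from 28.53 to 137.5 with it, ratios of 4.77 and 4.82. ICU2 thus lay lower in the arrays with control RNA in both groups, and its ratio was nearly the same in the 2 sets.

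For POLA3 and POLD3 the rise was larger in the arrays with control RNA, but no difference between the sets passed the test. POLA3 rose by 1.28 without control RNA and by 1.75 with it (adjusted p = 0.0178 and 0.0162), and its mean signal ratios were 2.85 and 3.90. POLD3 rose by 1.36 and 1.74 (adjusted p = 0.00839 and 0.0104), with mean signal ratios of 3.30 and 4.51. These fits within a set called 5.51% and 3.75% of probe sets as rises, and each compares 1 close pair with another. The rise with control RNA minus that without was 0.47 ± 0.285 for POLA3, 0.37 ± 0.194 for POLD3 and -0.06 ± 0.18 for ICU2 (SE), with adjusted p-values of 0.579, 0.518 and 0.936 for the interaction in limma, a test that 0.0835% of probe sets passed. Over both groups, the arrays with control RNA differed from the others by -0.26 for ICU2, 0.29 for POLA3 and 0.08 for POLD3 on the log2 scale, none past the threshold (adjusted p = 0.068, 0.205 and 0.628).

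Within E2Fa-Dpa, ICU2 deviated the other way from POLA3 and POLD3 on each of the 4 arrays, while in wildtype the members partly deviated alike. The deviation of ICU2 from its group mean was 0.11 in wildtype replicates 1 and 2, -0.14 and -0.09 in wildtype replicates 3 and 4, 0.03 and 0.26 in E2Fa-Dpa replicates 2 and 3, and -0.16 and -0.13 in E2Fa-Dpa replicates 1 and 4, on the log2(signal + 16) scale. In the same E2Fa-Dpa replicates 1 and 4 POLA3 deviated by 0.19 and 0.33 and POLD3 by 0.18 and 0.08, and in replicate 2 they deviated by -0.52 and -0.20. In E2Fa-Dpa replicate 3 they deviated by -0.0085 and -0.07. The opposite signs thus rest in part on values near the group mean, those of POLA3 in replicate 3 and ICU2 in replicate 2. In wildtype replicate 3 all members lay below their group mean, POLA3 at -0.19 and POLD3 at -0.16, and in wildtype replicate 2 POLD3 lay above it at 0.13, as ICU2 did. As a description over 8 arrays, which share 4 close pairs, the deviations of POLA3 and POLD3 correlated at 0.81, those of ICU2 and POLA3 at -0.32 and those of ICU2 and POLD3 at -0.24.

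**Figure D4:**
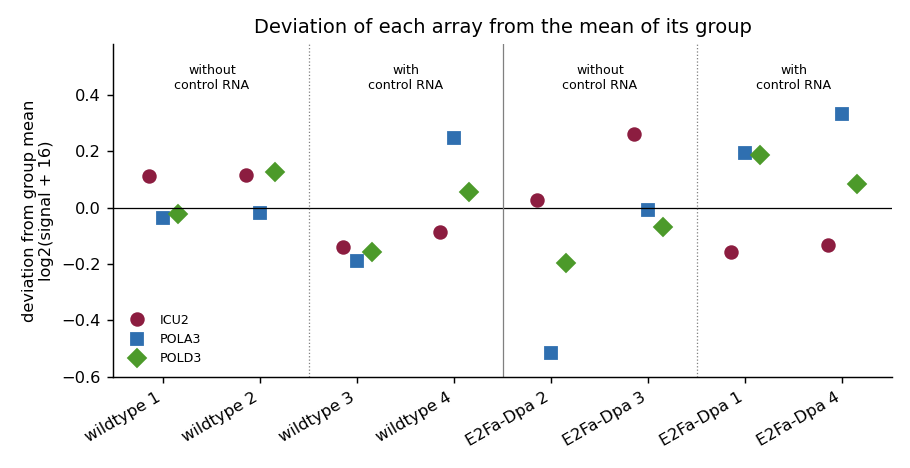
Deviation of each array from the mean of its group, log2(signal + 16), for ICU2, POLA3 and POLD3, with arrays ordered by group and array set. In E2Fa-Dpa, POLA3 and POLD3 lie above 0 on the 2 arrays with control RNA and ICU2 below it, and POLA3 reaches -0.52 on replicate 2.

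Whether the members rose by unequal amounts was tested on the log2 difference of their signals on each array, compared between the groups. The fold change of ICU2 exceeded that of POLA3 by 0.30 ± 0.268 and that of POLD3 by 0.27 ± 0.174 on the log2 scale, and POLA3 minus POLD3 gave -0.04 ± 0.137 (SE, n = 4 per group). In each of the 3 pairs the values of the groups overlapped, and none passed (exact permutation test, two-sided, p = 0.343, 0.257 and 0.943, adjusted over the 3 pairs 0.514, 0.514 and 0.943). A difference between members in the size of the rise was not detectable with 4 arrays per group.

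Among polymerases that do not belong to the replicative enzymes, changes ranged from none detected to a rise near that of the members. A list of 9 such genes had 4 with a named probe set, of which 2 rose and none fell, beside 4.36% and 2.94% of all probe sets. Blocking on the array set gave 3 rises, and close pairs as a random block left 1. Those fits called 11.7% and 1.53% of all probe sets higher. POLH, a Y-family polymerase known for copying past damaged bases, went from 16.46 ± 3.6 to 70.4 ± 15.7 (SD, n = 4 each), a log2 fold change of 1.40 ± 0.159 (SE, limma, adjusted p = 0.00115). Its signals of 60.8 to 93.7 in E2Fa-Dpa lay above the 12.4 to 20.8 of wildtype, and its ratio of means, 4.28, lay between those of POLD3 and ICU2. AT1G49980, a locus that the gene table does not name, had 0.66 ± 0.166 (SE, adjusted p = 0.0438) and kept its call only without wildtype replicate 2 among the 8 fits with 1 array left out (highest adjusted p 0.131). With close pairs as a random block its adjusted p was 0.285 and that of REV7 0.282, while POLH had 0.0163 (limma).

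REV7, a subunit of the translesion polymerase zeta, had a log2 fold change of 0.43 (limma, adjusted p = 0.055, and 0.017 when blocked on the array set), and its signals of 22.0 to 29.8 lay above the 12.9 to 18.1 of wildtype. AT4G32700, likewise without a name in the gene table, had -0.09 and -0.10 in its 2 probe sets (limma, adjusted p = 0.743 and 0.717). Its mean signals in wildtype and E2Fa-Dpa were 15.4 and 13.4 in the first and 10.8 and 9.11 in the second. These lie under the added 16, where the scale compresses a change, and whether they were above background was not assessed. The list's median was 0.55, beside 0.00 over all probe sets.

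The difference in fold change between each member and each of these 4 genes was tested in 12 pairs, of which 9 passed. In these 9 the values of the groups did not overlap, which gives p = 0.0286, the smallest the exact permutation test allows. Pairs at this value share 1 adjusted p, set by how many of the 12 reach it, and pass or fail together. The count of passes therefore does not weigh single differences. All arrays were counted as independent, without account of close pairs. ICU2 exceeded AT4G32700 by 1.91 ± 0.133, REV7 by 1.38 ± 0.116 and AT1G49980 by 1.15 ± 0.199 on the log2 scale (SE, exact permutation test, two-sided, adjusted p = 0.0381 each). The excess of POLA3 over the same 3 genes was 1.603, 1.08 and 0.85, and that of POLD3 was 1.64, 1.12 and 0.89, all with the same adjusted p. With a pseudocount of 1 in place of 16, 7 pairs passed, and POLA3 over REV7 (0.97, adjusted p = 0.0857) and over AT1G49980 (0.78, adjusted p = 0.114) did not. Against POLH no member passed, with excesses of 0.41 ± 0.204 for ICU2, 0.11 ± 0.146 for POLA3 and 0.15 ± 0.131 for POLD3 (SE, adjusted p = 0.137, 0.514 and 0.343). With a pseudocount of 1 the direction turned for POLA3 (-0.31) and POLD3 (-0.11), again without passing (adjusted p = 0.171 and 0.514).

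**Figure D5:**
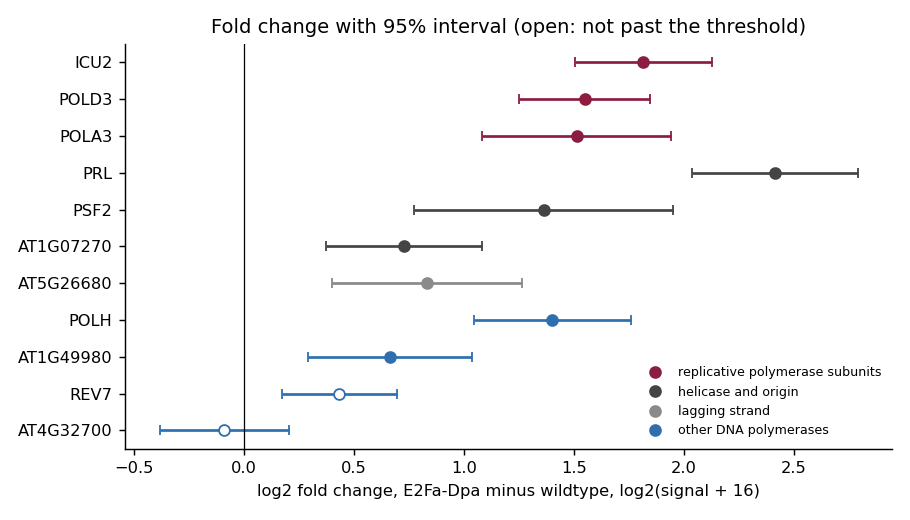
Log2 fold change (E2Fa-Dpa minus wildtype) with its 95% interval for the 3 members, the other measured genes of the replication lists and the other measured DNA polymerases; open points were not past the threshold. The members lie between 1.51 and 1.82, PRL above them at 2.42, POLH at 1.40, and AT4G32700 at -0.09.

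The other genes of the replication machinery came from lists of the clamp, the helicase and origins, the lagging strand and nucleotide supply. None of the 7 genes of the clamp and its loader and none of the 6 of nucleotide supply had a named probe set. All 3 measured genes of 24 for the helicase and origins rose, and so did the only measured gene of 12 for the lagging strand. Over all probe sets, 4.36% were called higher. PRL, the MCM7 subunit of the helicase that opens the fork, had 2.42 ± 0.167, and PSF2, part of the GINS complex that activates this helicase, had 1.36 ± 0.262 on the log2 scale (SE, limma, adjusted p = 0.000119 and 0.0158). AT1G07270 and AT5G26680, which the gene table leaves unnamed, had 0.73 and 0.83 (adjusted p = 0.0251 and 0.0323).

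Of these 4, PRL passed in each of the 8 fits with 1 array removed, and PSF2 lost it only without E2Fa-Dpa replicate 4 (adjusted p = 0.0546). AT1G07270 no longer passed when wildtype replicate 1 or 4, or replicate 1, 3 or 4 of E2Fa-Dpa, was removed (highest adjusted p 0.0813). AT5G26680 lost its call without any array but wildtype replicate 1 (highest adjusted p 0.0886). With close pairs as a random block PRL and PSF2 passed (limma, adjusted p = 0.000827 and 0.0479), and AT1G07270 and AT5G26680 did not (adjusted p = 0.164 and 0.09996).

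Set against these genes in 12 pairs, 7 differences in fold change passed (exact permutation test, two-sided, adjusted over the pairs). Here too the 8 arrays were counted as independent, without account of close pairs. PRL rose more than POLA3 and POLD3, by 0.90 ± 0.0696 and 0.87 ± 0.105 on the log2 scale (SE, adjusted p = 0.049 each), while ICU2 minus PRL, -0.60 ± 0.246, did not pass (adjusted p = 0.129). Each member exceeded AT1G07270, by 1.09 for ICU2, 0.78 for POLA3 and 0.82 for POLD3, and ICU2 and POLD3 exceeded AT5G26680 by 0.98 and 0.72 (adjusted p = 0.049 each). POLA3 minus AT5G26680, 0.68 ± 0.342, did not pass (adjusted p = 0.19). Against PSF2 no member passed, with differences of 0.45, 0.15 and 0.19 (adjusted p = 0.343, 0.468 and 0.486). With a pseudocount of 1 none of the 12 pairs passed, though 5 had an unadjusted p under 0.05, and with 32 there were 8 that passed. An unadjusted p under 0.05 is here always 0.0286, the smallest the exact permutation test allows. Pairs at this value share 1 adjusted p, set by how many of the 12 reach it, and pass or fail together. The change in count therefore does not weigh single differences.

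Genes whose signals followed those of a member most closely were sought among 6747 probe sets that name 1 gene and have a mean signal of at least 32, by Pearson correlation over the 8 arrays. Because both groups enter, this likeness mostly reflects the shared step between them, and it is given as a description. Closest to ICU2 were AT4G22960 (0.9988), AT1G68240 (0.9892), AT4G15520 (0.9882), EMS1 (0.9881), a receptor kinase of anther development, and UNG (0.9862), which removes uracil from DNA. Closest to POLA3 were the tubulin gene TUB7 (0.9926), AT4G30840 (0.992), AT4G33870 (0.991), AT3G54750 (0.9896) and AT2G17410 (0.9891). Closest to POLD3 were AT5G54970 (0.9953), PRL (0.9952), AT2G24970 (0.9939), the chromatin remodelling gene chr31 (0.9938) and AT3G02820 (0.9934). All 15 genes differ, and none is shared by the lists of 2 members. By deviations from the group means, the closest were AT5G20200 and the condensin gene ATSMC2 for ICU2 (0.98 each), AT3G62790 for POLA3 (0.97) and AT3G59800 for POLD3 (0.96).

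Some measures of tissue and RNA moved with the groups beside the members. Of 6 measured genes of mitosis 1 rose, Haspin, a histone kinase, with 0.79 (limma, adjusted p = 0.026), and 2 lay lower without passing, AUR1 at -0.19 and AUR2 at -0.35 (adjusted p = 0.424 and 0.35). ATSMC2, WYR and AUR3 had 0.79, 0.41 and 0.32 (adjusted p = 0.0593, 0.11 and 0.229). Blocking on the array set gave 3 rises, and with close pairs as a random block none passed, Haspin having the smallest adjusted p of 0.0907 (limma). Over all probe sets, 4.36% were called higher without a block, 11.7% with the array set blocked and 1.53% with close pairs as a random block. The summed signal of the 6 genes was 227 to 295 in wildtype and 319.96 to 333 in E2Fa-Dpa. The call of Haspin depended on wildtype replicates 2, 3 and 4 and on replicates 1 and 4 of E2Fa-Dpa, since removing any of these ended it (highest adjusted p 0.0878).

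The harvest of whole seedlings was reflected in signals of both leaf and root genes. All 4 measured leaf genes lay lower in E2Fa-Dpa, with PRK past the threshold at -0.78 (adjusted p = 0.0292), and PSAN and LHCB4.1 at -0.34 and -0.37 (adjusted p = 0.107 and 0.161). Their summed signal was 11101 to 13770 in wildtype and 8630 to 10558 in E2Fa-Dpa. All 4 measured root genes lay lower too, with PYK10 at -0.59 and AT5G17820 at -0.80 past the threshold (adjusted p = 0.0329 and 0.0324) and EXPA18 at -0.37 (adjusted p = 0.294), and summed signals of 4007 to 5054 and of 2728 to 3124. PRK, PYK10 and AT5G17820 kept their calls in 3, 2 and 2 of the 8 fits with 1 array left out. With close pairs as a random block none of the 3 passed (limma, adjusted p = 0.131, 0.158 and 0.116), and PRK and PYK10 also missed under quantile scaling (0.0805 and 0.0774) and cyclic loess (0.0745 and 0.0753). Blocking on the array set gave 3 falls among the leaf genes, PRK, PSAN and PSBY (adjusted p = 0.0019, 0.0236 and 0.0226), and 2 among the root genes. Over all probe sets, 2.94% were called lower without this block and 9.77% with it.

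The stomatal genes SPCH, FMA and MUTE had 0.50, 0.18 and 0.13 (adjusted p = 0.104, 0.431 and 0.602), of which SPCH passed when blocked on the array set (0.0383), with summed signals of 47.2 to 67.8 in wildtype and 72.8 to 98.0 in E2Fa-Dpa. The meristem gene CLV3 had signals under 8 on all arrays and a log2 fold change of 0.12 (adjusted p = 0.556). For the GAPDH control, 1 of its 2 pairs of probe sets had a 3' to 5' signal ratio of 0.87 ± 0.0365 in wildtype and 0.966 ± 0.0452 in E2Fa-Dpa (SD, n = 4 each), without overlap of the groups, and the other pair 1.27 ± 0.154 and 1.27 ± 0.16, while those of actin and ubiquitin overlapped. Between the array sets, the ratio of 1 actin pair was 5.66 to 8.07 without control RNA and 12.8 to 15.1 with it. A ubiquitin pair went the other way, with 1.67 to 1.95 without control RNA and 1.15 to 1.29 with it. The part of these measures in the rise of the members, or in their differences between array sets, was not tested.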

How the data were processed

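The labels gave 4 wildtype and 4 E2Fa-Dpa arrays. The authors deposited a linear intensity for each probe set on each array, made with MAS5 per the submitters' processing notes, with version and scaling target not given in the sources used here. A mean of about 100.01 after trimming was found on each array. The number of arrays limits the precision. Of 22810 probe sets, 64 manufacturer's controls were left out. Of the others, 13513 name 1 gene in the platform annotation, 503 name several and 8730 are unlisted. Through gene numbers 13436 matched the RefSeq gene table of TAIR10.1, used for names only.

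Signals were taken as log2(signal + 16), with no filter, and tested by limma 3.58.1 (R 4.3.3) through lmFit and eBayes with a trend and no covariate. P-values were adjusted by Benjamini-Hochberg over 22746 probe sets, with a threshold of 0.05. On simulated data for this contrast with 22746 probe sets, a 2-fold change was found in 56 of 100 probe sets that had it and a 4-fold change in 94 of 100, beside 10 false calls. The simulated noise was independent between arrays, without array sets or close pairs, unlike these data. Changes were made on the log2(signal + 16) scale, so they were larger in signal, and only in probe sets whose mean lay above a signal of 32. Single values were tested by exact permutation with scipy 1.17.1. Members and the 11 gene lists (95 genes, 29 measured) were chosen with earlier results of these data known, and each gene was read from its probe set with the highest mean. Every member was named, every measured polymerase, the 3 genes with the smallest p of each other list, and the 5 genes most like each member. Array sets were split at the widest gap in the dap signal. The planned search for E2F motifs in promoters was not run. Alternatives covered the pseudocount, scaling, filter, trend, blocks, array sets, close pairs, single arrays left out and, for the members, the exact permutation test.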

Additional observations from a re-analysis of the deposited data

Results flagged for a closer look

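POLH in E2Fa-Dpa replicate 4 had a signal of 93.7, apart from 60.8 to 65.3 in the other E2Fa-Dpa replicates by more than Dixon's 95% criterion for 4 samples allows. This was 1 of 50 groups of 4 arrays tested so, over 25 named probe sets, and chance flags about 1 in 20. Without that array POLH had a log2 fold change of 1.28 and was past the threshold (limma, adjusted p = 0.00392). No array stood apart in this way for ICU2, POLA3 or POLD3.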

How the results depend on the processing

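The members kept their direction under all 22 alternatives and passed the threshold under 21, the exception being close pairs averaged. For the exact permutation test, 1 of the 22, passing refers to its p of 0.0286, which was not adjusted over probe sets. That p follows from the groups not overlapping. Close pairs averaged left the log2 fold changes at 1.82 (ICU2), 1.51 (POLA3) and 1.55 (POLD3), with 0 members called. That fit rests on 2 values per group. With the replicate block all 3 passed (limma, adjusted p = 0.00403, 0.00776 and 0.00563), though whether shared numbers pair arrays is not known. Deviations of same-numbered arrays correlated at -0.52, 0.44, -0.36 and 0.53. Over all numbers, wildtype and E2Fa-Dpa arrays correlated at 0.31 to 0.55 within an array set and at -0.53 to -0.29 across sets. The signs thus follow the array set and cannot show a pairing by number. In the fit with the replicate block Haspin, AT1G07270, AT5G26680, AT1G49980, PRK and PYK10 no longer passed (0.0644 to 0.0989). Log2 fold changes were 2.22, 1.72 and 1.92 with a pseudocount of 1 and 1.53, 1.34 and 1.29 with 32. All probe sets past the threshold numbered 1661, against 4876 when blocked on the array set, 854 with the replicate block, 454 with close pairs as a random block, 2 with them averaged (2120 at an unadjusted p under 0.05), and 674 to 1696 with 1 array left out, with 674, 717 and 940 without E2Fa-Dpa replicates 4, 1 and 3 and 946 and 985 without wildtype replicates 1 and 2. Of the 1661, 59.7% were rises, against 42.0% with each array centred on its median. AT4G32700 turned to 0.14 in the arrays with control RNA. POLA3 minus POLD3 turned to 0.0497 with a pseudocount of 32 and ranged from -0.119 to 0.0692 with 1 array left out. POLA3 minus POLH turned to -0.31 with a pseudocount of 1 and ranged from -0.000216 to 0.231 with 1 array left out, POLD3 minus POLH to -0.11 and POLA3 minus PSF2 to -0.0111 with a pseudocount of 1; the cause was not tested. With 1 array left out, an exact test of a difference cannot go below p = 0.0571. The differences between genes were tested after the data were seen.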
